A study of Mus musculus with 6 samples.

Results

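The genes described here are a list of 48 genes that act in mitosis, the division of duplicated chromosomes between daughter cells. They were chosen by name: each listed gene was looked up in the array platform's annotation, the brightest probe set by mean signal over the 6 arrays was kept, and genes without a probe set were dropped. This left 41 genes out of 8251 genes named on the array. The other 7 (Ccnb1, Cdc25b, Bub1b, Espl1, Cenpf, Hmmr and Tpx2) had no probe set that carries their symbol alone and are not described. A probe set is a group of short probes that reads 1 transcript, and 9 of the 41 genes had more than 1 of them.

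Mitosis starts when cyclin-dependent kinase Cdk1, held by a B-type cyclin, is freed of its inhibitory phosphates. Chromosomes condense, microtubule motors build the spindle, and kinetochores on the centromeres attach to it. The spindle checkpoint then holds back the anaphase-promoting complex, a ubiquitin ligase called APC/C, until every chromosome is attached, after which securin and cyclin B are destroyed and the cell is cut apart by cytokinesis. Many of these genes are transcribed mainly from late S phase to mitosis, so their RNA in a culture is known to be high where many cells divide.

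The arrays were made from 1 mouse fibroblast clone, 35/1-22, derived from NIH3T3, an immortal embryo fibroblast line. The cells used for all 6 arrays carried c-myc and Ha-ras oncogenes behind a Tet-off promoter, which doxycycline switches off. All of them made IRF-1hER constantly, a fusion of interferon regulatory factor 1 that estradiol activates. The doxycycline group received 2 µg/ml doxycycline, the withdrawal group received neither drug, and the estradiol group was kept without doxycycline and received estradiol for 48 h, at 1 mM as the label gives it. Each group had 2 arrays, the first from RNA taken with an RNeasy kit and the second from RNA taken with TRIzol. The title of the array labelled doxycycline 2 also names estradiol, while its treatment label lists doxycycline alone. The design compares untransformed with myc/ras-transformed cells, and the latter with transformed cells in which IRF-1 is active. Since the labels do not say whether the 2 arrays of a group came from separate cultures, the spread behind every p-value is that between these arrays and may be technical alone.

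Values are MAS5 signals, a brightness on a linear scale, and differences are on the log2(signal + 32) scale, where added brightness makes the differences of dim probe sets look smaller. Across the 6 arrays the trimmed mean signal was 150.09 to 150.1 and the median 49.7 to 52.65. The RNA quality ratios, 3′ over 5′ probe sets of the same gene, were 0.737 to 0.921 for Gapdh and 1.04 to 1.16 for Actb. Of 11 fibroblast markers, 9 exceeded a signal of 100 on at least 1 array, but Lum stayed below 32 on all arrays and Vim at or below 40.7. Their summed signal was 26872.6 to 28803.3 with doxycycline, 20368.2 to 25425.1 after withdrawal and 15381.1 to 20451.8 with estradiol, and its part in the differences described here was not tested. The summed signals of epithelial markers (144.6 to 223.1), blood cell markers (386.1 to 476.9) and endothelial markers (39.9 to 84.7) were far lower. Among these other lists Cdh1, Cd68 and Cd14 exceeded 100 on some array, and 2 epithelial, 3 blood and 2 endothelial markers lay below 32 on every array.

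The arrays labelled withdrawal 1 and 2 differed widely from each other. The array labelled withdrawal 1 and the array labelled estradiol 1 were nearly the same: 16 of 7453 tested probe sets differed by at least 2-fold, and none of the 41 mitotic genes did. Withdrawal 1 and withdrawal 2, in contrast, differed by at least 2-fold in 920 probe sets and in 20 mitotic genes. By mitotic genes, withdrawal 2 was nearest to doxycycline 1, from which 1 of the 41 differed by 2-fold. The 1 probe set that names Myc read 62.3 and 49.6 under doxycycline, 25.7 and 118.5 after its withdrawal, then 31.9 and 28.1 under estradiol. Irf1, also read by 1 probe set, had 219.1 and 319.8, then 211.8 and 204.3, then 224.7 and 155.2. Whether these probe sets read the introduced genes is not known here. The median differences that rest on the withdrawal arrays are therefore also given by replicate.

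The mitotic genes were high on 3 arrays and low on the other 3. Relative to its own mean over the arrays, the median mitotic gene lay at -0.41 on doxycycline 1, -1.02 on doxycycline 2 and -0.40 on withdrawal 2 (log2), and at 0.60 on withdrawal 1, 0.62 on estradiol 1 and 0.72 on estradiol 2. The same median over all tested probe sets stayed between -0.02 and 0.01 on every array. For 37 of the 41 genes the 3 highest arrays were withdrawal 1, estradiol 1 and estradiol 2, an order that 18.1% of the tested probe sets had. The exceptions were Ube2c, Cenpe, Cenpc1 and Kifc1. The doxycycline 2 array gave the lowest value for 31 genes (75.6%, against 20.8% of tested probe sets), and estradiol 2 gave the highest for 23. In bulk RNA, fewer dividing cells and less of these RNAs per cell cannot be told apart.

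**Figure D1:**
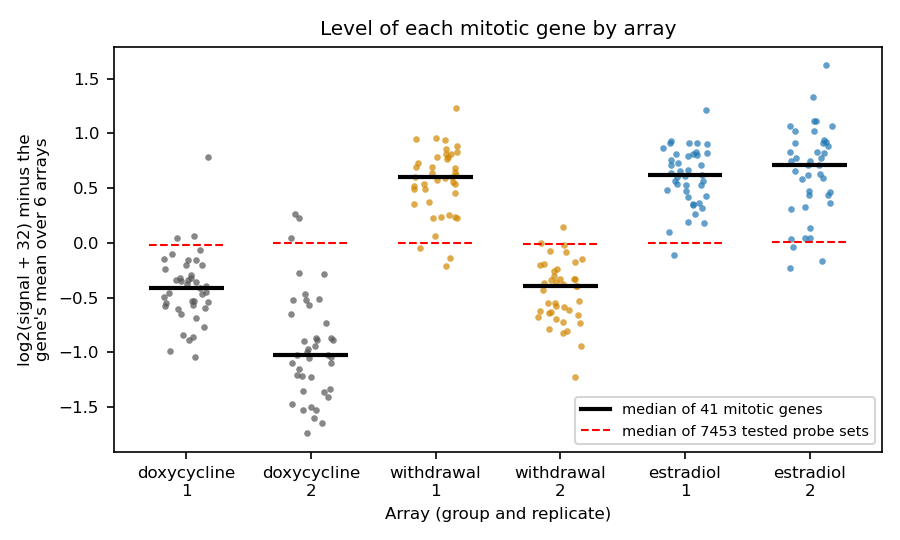
Each point is 1 of the 41 mitotic genes on 1 of the 6 arrays, as log2(signal + 32) minus that gene's mean over the arrays, with points spread sideways only for sight. Black bars are medians of the mitotic genes, from -1.02 on doxycycline 2 to 0.72 on estradiol 2, and red dashed lines are medians of the 7453 tested probe sets, which lie near 0.

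**Figure D2:**
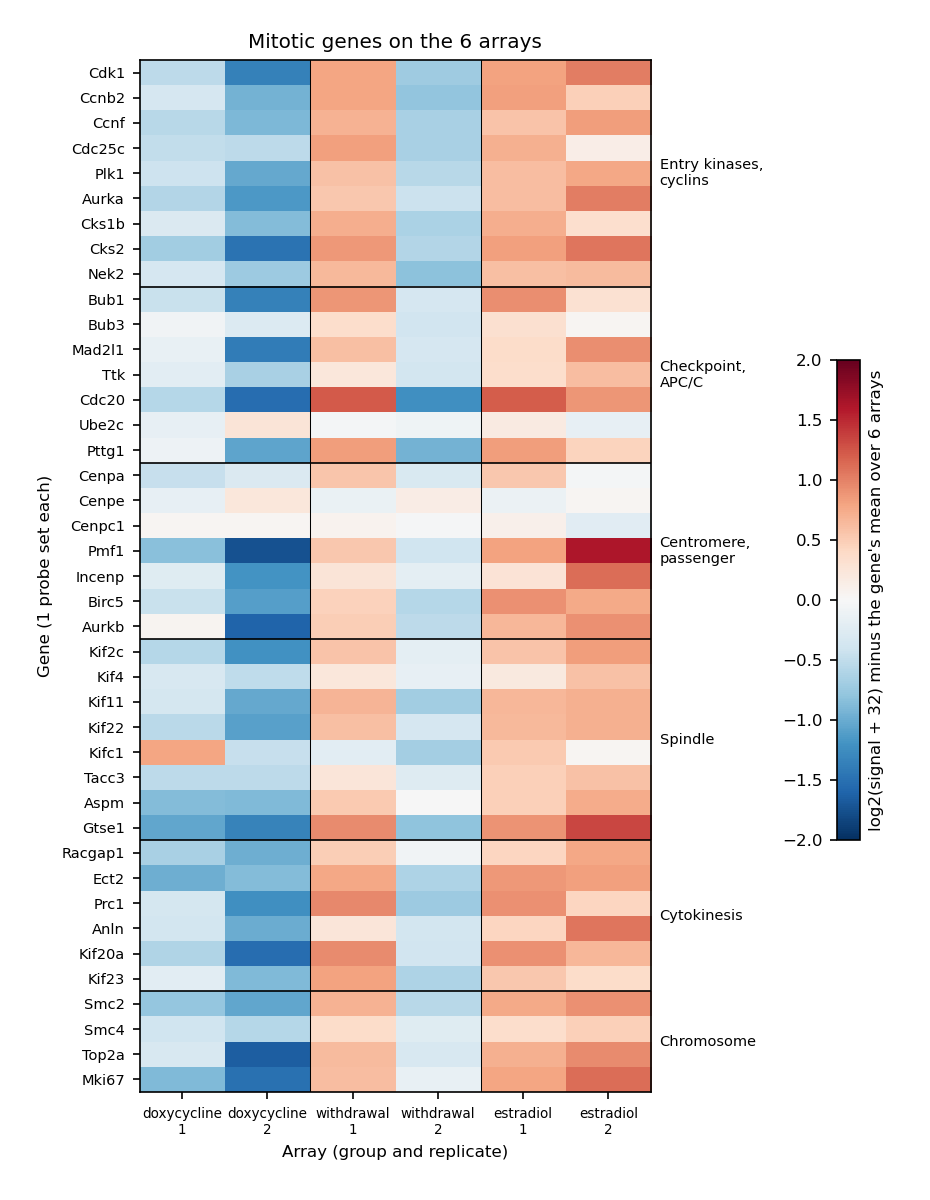
Rows are the 41 mitotic genes in groups by role, columns are the 6 arrays, and colour is log2(signal + 32) minus the gene's mean over the arrays, with red above and blue below the mean (the scale ends at -2 and 2). Most rows are red on withdrawal 1, estradiol 1 and estradiol 2, while Ube2c, Cenpe, Cenpc1 and Kifc1 show another order.

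Estradiol against doxycycline asks how cells with the oncogenes switched on and IRF-1 active differ from cells with the oncogenes switched off. In this comparison 38 of the 41 mitotic genes were higher with estradiol, against 50.4% of the tested probe sets, and 3 were lower (Ube2c, Cenpe and Cenpc1). The median difference was 1.42 (log2, a 2.67-fold higher value), against 0.01 over all probe sets. It was 1.03 between the arrays of replicate 1 and 1.72 between those of replicate 2. In 37 of the 41 genes both estradiol arrays exceeded both doxycycline arrays, which 24.1% of all probe sets did, and 30 genes were at least 2-fold higher, which 3.8% of the tested probe sets were.

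Cenpe was too dim to test, and of the 40 tested mitotic genes 0 passed an adjusted p of 0.05 in limma fitted on all 6 arrays with Benjamini-Hochberg adjustment, as did 0 of 7453 probe sets (0%). At an unadjusted p under 0.05 the same limma fit gave 32 of the 40 as higher and 0 as lower, against 8.31% and 5.66% of the tested probe sets. The smallest adjusted p was 0.255 by limma, shared by 17 mitotic genes among 202 probe sets. The 2 withdrawal arrays enter that fit through its estimate of spread. In a limma fit of the 4 doxycycline and estradiol arrays alone, 17 of the 40 mitotic genes (42.5%) rose, with adjusted p from 0.0296 to 0.0498, against 1.15% of the tested probe sets. They include Cdc20, Ccnf and Plk1, which were not among the 17 at 0.255, and lack Tacc3, Anln and Top2a, which were. When either withdrawal array was left out of the fit of all groups, the spread came from these 4 arrays alone. The calls of the same genes there therefore repeat this fit and add no support. None was called when a doxycycline or an estradiol array was left out, and the count of 32 was then 17 without doxycycline 2 (against 3.65% of the tested probe sets) and 21 without estradiol 2 (2.25%).

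**Figure D3:**
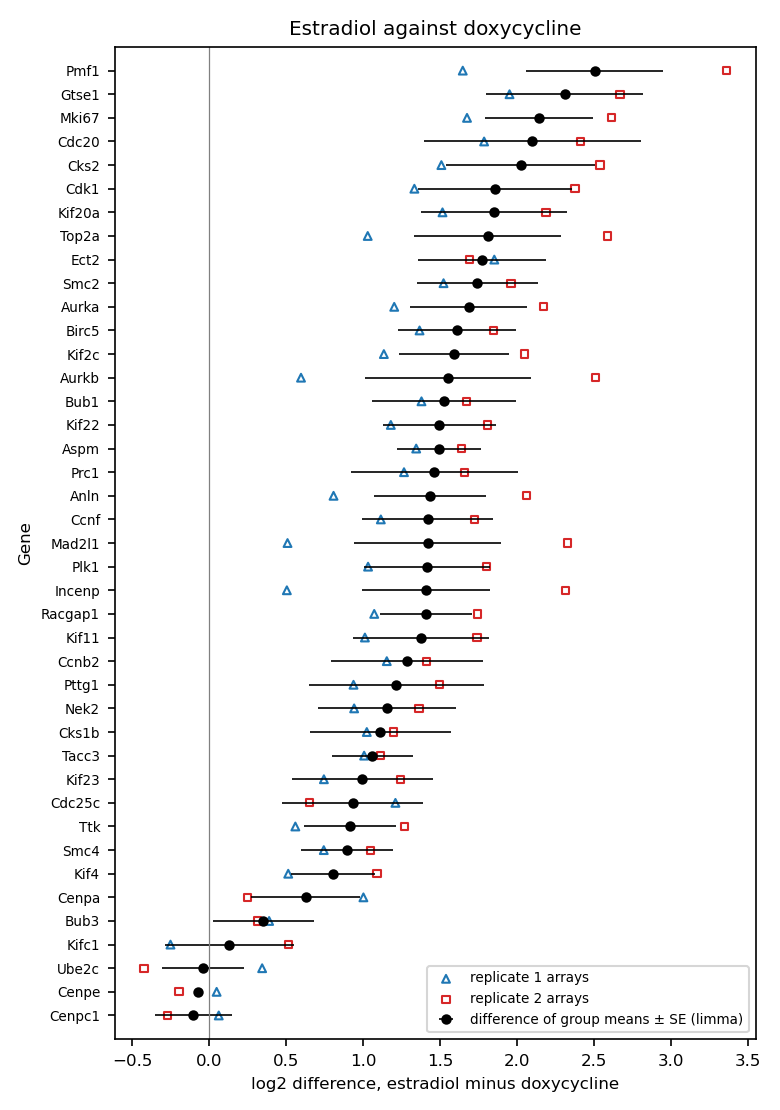
The x axis is the log2 difference, estradiol minus doxycycline, for each of the 41 mitotic genes, sorted by size on the y axis. Black points are differences of group means with their limma standard error (Cenpe, not tested, has none), and open triangles and squares are the differences within replicates 1 and 2. Pmf1 is highest at 2.50 and Cenpc1 lowest at -0.10.

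Withdrawal against doxycycline asks what switching on the oncogenes did. The median mitotic gene was 0.75 higher after withdrawal (log2, 1.68-fold), with 37 genes higher, against 51.8% of the tested probe sets, and 4 lower (Kifc1, Ube2c, Cenpe and Cenpc1). The difference was 1.03 between the arrays of replicate 1 and 0.47 between those of replicate 2. In 18 of the 41 genes the groups did not overlap, with withdrawal higher, against 16.3% of all probe sets, and 11 genes were at least 2-fold higher, against 0.483% of the tested probe sets. None of the 40 tested genes passed the adjusted test in limma, as none of 7453 probe sets (0%) did. The smallest adjusted p of a mitotic gene was 0.925. At an unadjusted p under 0.05 limma gave 14 mitotic genes as higher and 0 as lower, against 2.07% and 2.31% of the tested probe sets. The 14 higher genes became 32 without withdrawal 2 (against 6.8% of the tested probe sets), 3 without withdrawal 1 (4.21%, so near the background) and 2 without doxycycline 2 (0.617%). They became 7 without estradiol 1 (1.31%) and 7 without estradiol 2 (1.33%). The 18 genes higher without overlap became 38 without withdrawal 2 (against 37.6% of the tested probe sets) and 33 without doxycycline 1 (31%), where a lone array separates more easily from the other group.

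The withdrawal arrays gave very different sizes of this difference. Withdrawal 1 lay above the doxycycline mean for 38 genes, with a median of 1.37, and withdrawal 2 for 29 genes, with a median of 0.24. Set against the 2 doxycycline arrays one by one, withdrawal 2 lay between them for 18 genes (26.2% of the tested probe sets did). It lay above both for 18 and below both for 5. Of the probe sets tested without withdrawal 1, 39.2% lay above both, so the 18 genes above are near that share. The genes highest on withdrawal 2 over the doxycycline mean were Mki67 (1.05), Pmf1 (0.89), Aspm (0.87) and Racgap1 (0.74), and the lowest were Kifc1 (-0.83) and Pttg1 (-0.36).

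**Figure D4:**
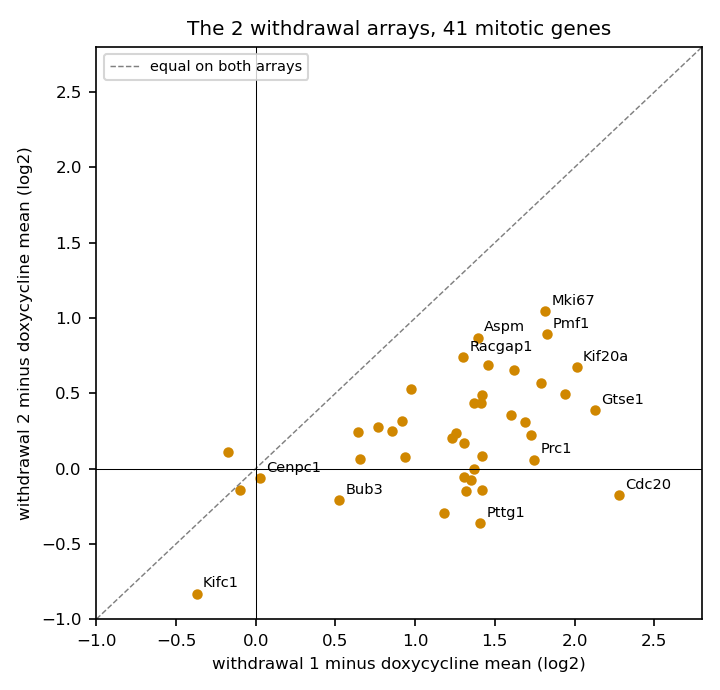
Each point is 1 of the 41 mitotic genes, with its log2 difference from the doxycycline mean on withdrawal 1 (x axis) and on withdrawal 2 (y axis). The dashed line marks equal differences; 40 genes lie below it, and Cdc20 is the farthest, at 2.28 on withdrawal 1 and -0.18 on withdrawal 2.

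Estradiol against withdrawal asks what active IRF-1 did to the transformed cells, and it shares its withdrawal arrays with the comparison just given and its estradiol arrays with the first. The median mitotic gene was 0.64 higher with estradiol (log2, 1.56-fold), with 39 genes higher, against 51% of the tested probe sets, and 2 lower (Cenpc1 and Cenpe). The medians within the replicates were far apart, at 0.02 for replicate 1 and 1.25 for replicate 2. In 16 genes both estradiol arrays exceeded both withdrawal arrays, against 12.3% of all probe sets. Limma called 0 of the 40 tested genes, and 0 of 7453 probe sets (0%), with every adjusted p of a mitotic gene at 1.00. At an unadjusted p under 0.05 it gave 2 genes as higher, Pmf1 and Birc5, and 0 as lower, against 0.335% and 0.362% of the tested probe sets. Without withdrawal 1 the median was 1.12, limma gave 28 genes as higher at an unadjusted p under 0.05, against 7.92% of the tested probe sets, and the smallest adjusted p was 0.0575. Without withdrawal 2 the median was 0.08 and the count 0, against 0.215%. Genes higher without overlap numbered 38 without withdrawal 1, against 38.2% of the tested probe sets, and 26 without estradiol 1, against 29.6%. Without withdrawal 2, 17 were higher without overlap, against 29.8% of the tested probe sets. Another 8 were lower without overlap, and no share of the tested probe sets is at hand to set beside them.

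The starts of mitotic genes often share 2 short motifs. The cell cycle genes homology region, or CHR, is read by MuvB complexes, which repress these genes in resting cells and, with B-Myb and FoxM1, activate them before mitosis. CCAAT boxes are read by the factor NF-Y. The members' RefSeq promoters (GRCm38.p6) were searched for the CHR letters TTTGAA, the variant TTCGAA and the box CCAAT, on both strands. Windows of 300 bases ran from 250 before the start to 50 after it. Because the members were chosen by name as mitotic genes, their motif shares do not depend on the array values and say nothing about the order of arrays. Overlaps between these motifs were not removed. Of the 41 genes, 36 matched a promoter, with 40 windows, and Cdc25c, Incenp, Aurkb, Kif20a and Smc4 did not.

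TTTGAA stood in 72.5% of the mitotic windows, against 11.8% of 5936 windows of genes with a tested probe set and 17.9% of all 32851 promoters. TTCGAA stood in 5%, against 2.11% and 1.56%. CCAAT stood in 85%, against 37.9% and 37.4%, and at least 2 copies of it in 57.5%, against 14.7% and 11.7%. Either CHR motif together with CCAAT stood in 70% of the mitotic windows, against 5.9% and 7.52%. Within 50 bases of the start on either side, a CHR motif was found in 65% of them, against 3.59% and 5.31%.

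**Figure D5:**
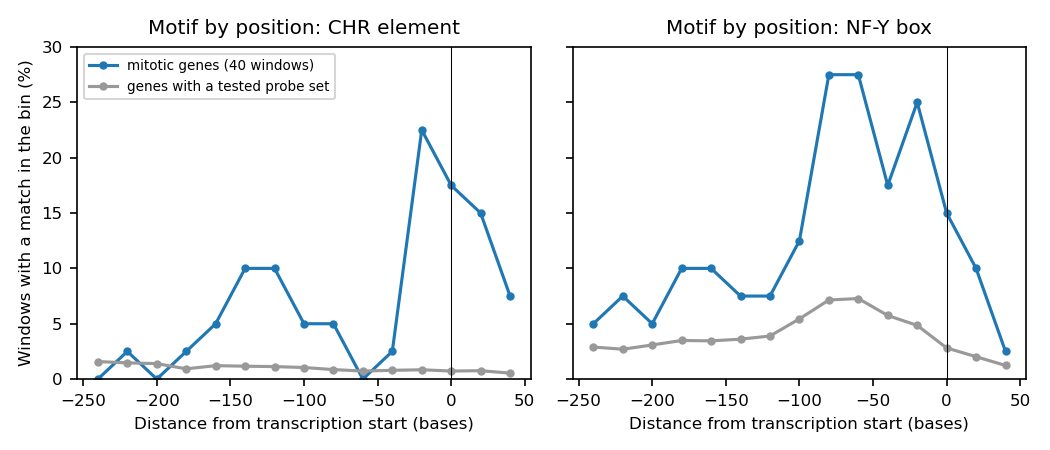
The x axis is the distance from the transcription start in bases, in bins of 20, and the y axis the percentage of promoter windows with a match that begins in the bin, for the CHR motifs (left) and the CCAAT box of NF-Y (right). Blue is the 40 windows of mitotic genes and grey the 5936 windows of genes with a tested probe set, and the blue line reaches 22.5% (left) and 27.5% (right).

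The 120 bases before the start are printed 5′ to 3′ on the gene's strand for 5 genes that were high on withdrawal 1 and both estradiol arrays and carry such motifs. Capitals mark the motifs as they read on the printed strand, so that TTCAAA is TTTGAA on the other strand, while ATTGG is the reverse complement of CCAAT. The stretches are those of Cdc20 (chr4:118437344-118437463, minus strand), Cdk1 (chr10:69352913-69353032, minus), Ccnb2 (chr9:70421555-70421674, minus), Kif22 (chr7:127042421-127042540, minus) and Top2a (chr11:99024190-99024309, minus).
Cdc20: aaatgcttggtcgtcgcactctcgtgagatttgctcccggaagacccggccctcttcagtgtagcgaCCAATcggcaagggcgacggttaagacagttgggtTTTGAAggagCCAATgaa
Cdk1: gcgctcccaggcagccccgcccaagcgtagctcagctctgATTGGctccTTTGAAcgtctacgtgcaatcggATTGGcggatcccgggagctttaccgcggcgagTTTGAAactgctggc
Ccnb2: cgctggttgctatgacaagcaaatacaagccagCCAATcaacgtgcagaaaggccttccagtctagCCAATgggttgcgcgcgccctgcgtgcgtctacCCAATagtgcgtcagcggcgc
Kif22: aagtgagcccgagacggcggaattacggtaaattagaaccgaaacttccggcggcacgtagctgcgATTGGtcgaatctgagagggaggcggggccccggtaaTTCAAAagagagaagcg
Top2a: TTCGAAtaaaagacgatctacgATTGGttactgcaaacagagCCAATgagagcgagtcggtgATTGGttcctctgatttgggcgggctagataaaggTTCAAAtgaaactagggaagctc
The base just before the start is counted as -1. Cdc20 has TTTGAA at -18 between CCAAT boxes at -53 and -8. Cdk1 has TTTGAA at -15 and at -71, and Kif22 has TTCAAA at -17. Ccnb2 has CCAAT boxes at -87, -54 and -21, spaced evenly, and its TTTGAA matches lie outside the printed stretch.

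The next 3 stretches are shown because motif and order of arrays were not paired in every gene. Cks2 (chr13:51645112-51645231, plus strand) was among the genes with the largest differences but holds CCAAT alone. Ube2c (chr2:164769809-164769928, plus) holds both motifs but did not share the order of arrays. Cenpc1 (chr5:86065584-86065703, minus), which did not share it either, has neither motif in the printed stretch.
Cks2: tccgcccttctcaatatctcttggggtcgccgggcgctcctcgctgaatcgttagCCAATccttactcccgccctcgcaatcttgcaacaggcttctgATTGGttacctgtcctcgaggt
Ube2c: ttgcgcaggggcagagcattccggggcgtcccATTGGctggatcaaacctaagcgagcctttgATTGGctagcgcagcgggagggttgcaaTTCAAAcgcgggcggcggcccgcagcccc
Cenpc1: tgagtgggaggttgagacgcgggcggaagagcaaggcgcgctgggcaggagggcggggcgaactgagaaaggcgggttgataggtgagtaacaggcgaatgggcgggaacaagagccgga
The 27 genes with a CHR motif had a median estradiol minus doxycycline difference of 1.43 (26 higher, the exception being Ube2c at -0.04). The 9 without one had a median of 1.22 (7 higher, the exceptions being Cenpc1 and Cenpe). Cenpe was too dim to test and Ube2c was dim (33.4 to 55.8), so the split leans on genes with little signal. The 6 genes without CCAAT had a median of 1.43 (6 higher), and the 30 with it nearly the same, 1.42 (27 higher). These matches describe letters in a window and do not show binding.

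The entry kinases and cyclins were higher with estradiol than with doxycycline in 9 of 9 genes, without overlap, against 24.1% of all probe sets. Their median difference was 1.42 (log2). The group's median for withdrawal against doxycycline was 0.74, 1.13 in replicate 1 and 0.25 in replicate 2. For estradiol against withdrawal it was 0.68, 0.00 in replicate 1 and 1.45 in replicate 2. Cdk1, the kinase that drives entry into mitosis (Entrez gene 12534), gave 490.7 and 262.8 on the doxycycline arrays, 1266.3 and 426.6 on the withdrawal arrays and 1283.4 and 1497.6 on the estradiol arrays. Withdrawal 2 thus lay between the doxycycline arrays, while withdrawal 1 was close to the estradiol arrays. Its estradiol minus doxycycline difference was 1.85 ± 0.50 (SE, log2; limma adjusted p = 0.255). Ccnb2, a B-type cyclin and partner of Cdk1 (Entrez gene 12442), read 398.9 and 251.6, then 904.8 and 284.8, then 925.8 and 722.8, in the same order of groups. Cks1b, a small Cdk-binding subunit that also helps to degrade a Cdk inhibitor (Entrez gene 54124), read 514.3 and 335.2, then 1074.7 and 399.2, then 1077.8 and 810.2. In both genes estradiol 2 was lower than estradiol 1 and withdrawal 2 lay between the doxycycline arrays. Their estradiol minus doxycycline differences were 1.28 ± 0.49 for Ccnb2 and 1.11 ± 0.46 for Cks1b (limma adjusted p = 0.325 and 0.342).

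Cks2, the sister of Cks1b, differed by 2.02 ± 0.48 (log2, SE), with 210.0 and 108.6 with doxycycline and 655.8 and 784.3 with estradiol. The other entry genes differed by 0.93 (Cdc25c, the phosphatase that activates Cdk1) to 1.68 (Aurka, a kinase of the centrosome and spindle). Between these lay Nek2 (1.15), a kinase that separates centrosomes, Plk1 (1.42), the polo kinase, and Ccnf (1.42), an F-box cyclin. In the fit of the 4 doxycycline and estradiol arrays, Cks2, Cdk1, Aurka, Ccnf and Plk1 rose.

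Among the checkpoint and APC/C genes, 6 of 7 were higher with estradiol than with doxycycline without overlap, against 24.1% of all probe sets. The group's median was 1.22 (log2). Cdc20, the activator of APC/C and target of the checkpoint (Entrez gene 107995), read 827.8 and 412.2 under doxycycline, 2972.5 and 514.1 after its withdrawal, then 2929.9 and 2330.8 under estradiol. It had the widest gap between the withdrawal arrays of all 41 genes, 2.46 on the log2 scale. Its estradiol minus doxycycline difference was 2.10 ± 0.71 (SE; limma adjusted p = 0.286), and it rose in the fit of those 4 arrays. Bub3, a checkpoint protein that binds kinetochores (Entrez gene 12237), read 826.6 and 711.4, then 1115.2 and 659.0, then 1091.7 and 892.5. Its difference was small, 0.35 ± 0.33 (limma adjusted p = 0.663), although its groups did not overlap. Pttg1, securin (Entrez gene 30939; its probe set has probes shared among similar transcripts), read 364.2 and 172.9, then 723.9 and 189.3, then 726.1 and 545.4. Its withdrawal 2 value lay close to doxycycline 2, and its estradiol minus doxycycline difference was 1.22 ± 0.57 (limma adjusted p = 0.378).

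Bub1, a checkpoint kinase, was dim with doxycycline (42.5 and 7.6) and brighter with estradiol (161.6 and 93.9), a difference of 1.52 ± 0.47 (log2, SE). Mad2l1, which inhibits Cdc20, differed by 1.42 and Ttk, the kinase that starts checkpoint signalling, by 0.91. Mad2l1 differed mainly in replicate 2, by 2.33, against 0.51 in replicate 1. Ube2c, the ubiquitin-conjugating enzyme of APC/C, stayed between 33.4 and 55.8 on all arrays, near the dim end, with its highest value on doxycycline 2 and a difference of -0.04 ± 0.27.

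The centromere and chromosomal passenger genes were mixed. With estradiol, 5 of 7 were higher than with doxycycline without overlap, against 24.1% of all probe sets, and Cenpe and Cenpc1 were slightly lower. Incenp, the scaffold of the passenger complex (Entrez gene 16319), read 177.1 and 75.0 under doxycycline, 261.3 and 184.0 after its withdrawal, then 264.4 and 499.5 under estradiol. It had the largest gap of all 41 genes between the estradiol arrays, 0.84 on the log2 scale, and differed from doxycycline by 0.50 in replicate 1 and 2.31 in replicate 2. Birc5, or survivin, another subunit (Entrez gene 11799), read 94.2 and 48.8, then 204.8 and 84.2, then 293.1 and 258.7. Its estradiol minus doxycycline difference was 1.61 ± 0.38 (SE, log2; limma adjusted p = 0.255), and 0.46 separated estradiol 1 from withdrawal 1. Aurkb, the kinase of the complex, differed by 1.55 ± 0.54, again more in replicate 2 (2.51) than in replicate 1 (0.60).

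Pmf1, a subunit of the kinetochore's MIS12 complex (Entrez gene 67037), read 44.6 and 9.0 under doxycycline, 166.7 and 72.0 after its withdrawal, then 207.7 and 388.9 under estradiol. The 3 groups did not overlap, and the difference was 2.50 ± 0.44 (SE, log2; limma adjusted p = 0.255), 1.65 in replicate 1 and 3.36 in replicate 2. Cenpa, the histone H3 variant that marks centromeres (Entrez gene 12615), read 103.8 and 122.1, then 244.4 and 120.3, then 239.7 and 151.1. Its withdrawal 1 and estradiol 1 values were high and the other 4 lower, with a difference of 0.62 ± 0.35 (limma adjusted p = 0.451). Cenpc1, the inner kinetochore protein that binds such centromeres (Entrez gene 12617), was flat, at 120.9 and 121.0, then 123.5 and 114.4, then 127.5 and 94.9, the smallest spread of all 41 genes (0.33, log2). The probe set of Cenpe, a kinetochore motor, read 1.0 to 11.2 and carried no usable signal.

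All 8 spindle genes were higher with estradiol than with doxycycline, with a median of 1.43 (log2). In 7 of them the groups did not overlap, against 24.1% of all probe sets. Kif22, a motor that pushes chromosome arms (Entrez gene 110033), read 244.2 and 155.9 under doxycycline, 576.4 and 287.2 after its withdrawal, then 593.2 and 626.0 under estradiol. Its 3 groups did not overlap, although the withdrawal arrays lay far apart, and its difference was 1.49 ± 0.37 (SE; limma adjusted p = 0.255). Gtse1, a microtubule-binding protein that stabilises chromosome alignment (Entrez gene 29870), read 85.8 and 64.5, then 433.6 and 107.4, then 423.0 and 580.7. Kif2c, which takes apart microtubules at kinetochores (Entrez gene 73804), read 139.4 and 77.5, then 344.8 and 188.8, then 344.0 and 420.0. For both, withdrawal 1 lay between the estradiol arrays and withdrawal 2 lay above both doxycycline arrays. Their differences were 2.31 ± 0.51 for Gtse1 and 1.59 ± 0.36 for Kif2c (limma adjusted p = 0.255 for each).

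Aspm, a spindle pole protein, was near background with doxycycline (9.5 and 8.7) and brighter after withdrawal (76.1 and 43.1) and with estradiol (73.3 and 94.7). It differed by 1.49 ± 0.27 (SE, log2), and its withdrawal arrays both stood well above doxycycline. Kif11, the motor that pushes spindle poles apart, differed by 1.37, Tacc3, which links microtubules in spindle fibres, by 1.06 and Kif4, a chromosome-bound motor, by 0.80. Kifc1, a minus-end motor (Entrez gene 100502766; its probes may read related sequences), had another order than the rest. It read 98.8 and 23.0 under doxycycline, 33.6 and 15.7 after its withdrawal, then 77.8 and 46.5 under estradiol. Doxycycline 1 was its highest array, the doxycycline arrays spanned the whole range of the estradiol ones, and its difference was 0.13 ± 0.42 (limma adjusted p = 0.922). Gtse1, Aspm, Kif22 and Kif2c rose in the fit of the 4 doxycycline and estradiol arrays.

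The cytokinesis genes were higher with estradiol than with doxycycline in 6 of 6 cases without overlap, against 24.1% of all probe sets. Their median difference was 1.45 (log2). Anln, anillin, which ties the contractile ring to the membrane (Entrez gene 68743), read 268.4 and 163.6 under doxycycline, 426.6 and 270.2 after its withdrawal, then 493.4 and 783.9 under estradiol. Withdrawal 2 was almost level with doxycycline 1, estradiol 2 was the highest array, and the difference was 1.43 ± 0.37 (SE; limma adjusted p = 0.255). Prc1, which bundles the microtubules of the central spindle (Entrez gene 233406), read 205.6 and 97.8, then 557.9 and 151.0, then 538.7 and 377.6. Kif20a, a central spindle motor (Entrez gene 19348, with probes that may read related sequences), read 115.0 and 45.3, then 398.3 and 138.3, then 387.9 and 319.9. In both, withdrawal 1 was the highest array. Their differences were 1.46 ± 0.54 for Prc1 and 1.85 ± 0.47 for Kif20a (limma adjusted p = 0.311 and 0.255).

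Racgap1 and Kif23 form centralspindlin, which recruits Ect2 to the division site. Ect2 differed by 1.77 ± 0.42 (log2, SE), with 48.3 and 55.1 with doxycycline and 257.6 and 249.2 with estradiol. Racgap1 differed by 1.41 ± 0.30 and Kif23 by 0.99 ± 0.46. Ect2, Kif20a and Racgap1 rose in the fit of the 4 doxycycline and estradiol arrays.

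The chromosome genes had the highest median estradiol minus doxycycline difference of the 6 role groups, 1.77 (log2). Of these genes, 4 of 4 were higher without overlap, against 24.1% of all probe sets. Top2a, the topoisomerase that untangles sister chromatids (Entrez gene 21973), read 183.2 and 53.9 under doxycycline, 385.2 and 182.4 after its withdrawal, then 407.0 and 484.4 under estradiol. Withdrawal 2 was level with doxycycline 1, doxycycline 2 was far lower, and the difference was 1.81 ± 0.48 (SE; limma adjusted p = 0.255). Mki67, the Ki-67 protein that coats mitotic chromosomes and is used as a proliferation marker (Entrez gene 17345), read 65.0 and 31.3, then 243.8 and 129.8, then 277.4 and 355.1. Its 3 groups did not overlap, and its difference from doxycycline was 1.43 ± 0.35 after withdrawal and 2.14 ± 0.35 with estradiol (limma adjusted p = 0.925 and 0.255). With the mean of its 2 probe sets, the dimmer of which did not follow, these differences were 0.58 and 1.08. Smc4, a condensin core subunit (Entrez gene 70099), read 229.2 and 200.0, then 412.3 and 260.0, then 405.2 and 446.7. Its difference, 0.89 ± 0.30 (limma adjusted p = 0.282), stood beside 1.74 ± 0.39 for its partner Smc2. Smc2 and Mki67 rose in the fit of the 4 doxycycline and estradiol arrays.

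Where a gene had several probe sets, the further ones with a mean signal of 46.8 or more were higher too, but sizes differed. The further probe sets of Plk1, whose probes may read related sequences, differed by 2.02 and 1.38 between estradiol and doxycycline (log2). That of Cdc25c differed by 1.14, that of Kif20a by 1.23 (brightest 1.85) and that of Incenp by 0.79 (brightest 1.41). All of these were higher without overlap, against 24.1% of all probe sets. The dimmer ones did not all follow. Mki67's second probe set, with a mean signal of 33.4 and bright enough to be tested, differed by 0.02. Those of Bub3 and Pttg1, with means of 6.63 and 8.58 and too dim to test, differed by -0.13 and 0.07. For Bub1 the further probe sets differed by 0.77 and -0.11. Averaged over its probe sets, the difference was 0.64 for Pttg1 and 0.11 for Bub3.

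The 2 estradiol arrays were not alike gene by gene. Estradiol 2 was above estradiol 1 for 25 genes and below it for 16, with a median of 0.13 (log2). It was highest for Incenp (0.84), Pmf1 (0.81), Anln (0.64) and Mad2l1 (0.56), and lowest for Bub1 (-0.62), Cdc25c (-0.58) and Cenpa (-0.57). The extraction method differs between these arrays too and cannot be told apart from other differences between replicates.

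A further list of 69 mitotic genes, kept apart from the 41, was measured on the same arrays. Of its 44 genes with a probe set, 34 were higher with estradiol than with doxycycline, against 50.4% of the tested probe sets, and 10 lower. The median was 0.34 (log2). Without overlap, 19 were higher, against 24.1% of all probe sets, and 4 lower, against 2593 of all 12422 probe sets. Limma called 0 of the 39 tested at an adjusted p of 0.05, and at an unadjusted p under 0.05 it gave 12 as higher and 1, Numa1, as lower (-0.71), against 8.31% and 5.66% of the tested probe sets. The highest were Tubg1, the tubulin of microtubule-organising centres, at 2.00 ± 0.46 (SE), Ncaph, a condensin subunit, at 1.60 and Plk4, the kinase of centriole duplication, at 1.45. The 7 APC/C core subunits with a probe set differed by -0.50 (Anapc4), -0.32 (Cdc16), -0.24 (Anapc2), -0.14 (Anapc5), 0.09 (Cdc26), 0.38 (Anapc1) and 0.51 (Cdc23).

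Of 14 regulators of mitotic transcription, 11 had a probe set. With estradiol, 9 of these were higher than with doxycycline, against 50.4% of the tested probe sets, with a median of 0.35 (log2). Without overlap, 8 were higher, against 24.1% of all probe sets, and 1 lower, against 2593 of all 12422 probe sets. Limma called 0 of the 10 tested at an adjusted p of 0.05 and gave 2 as higher at an unadjusted p under 0.05, against 8.31% of the tested probe sets. These were Mybl2, or B-Myb, the MuvB partner in dividing cells, at 1.76 ± 0.40 (SE) and Tfdp1, the partner of E2F factors, at 1.44 ± 0.31. Foxm1 differed by 0.31 ± 0.41, and Rbl2, the MuvB partner in resting cells, by -0.31 (too dim to test).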

How the data were processed

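The authors deposited intensities on a linear scale, which the submitters' processing notes credit to MAS5, already at a common level. Its version and settings were not given in the sources used here. Per the labels, biotin-labelled cRNA came from 6 µg of total RNA. Gene names came from the platform annotation. Each array was scaled to a common 2% trimmed mean, with factors from 0.999968 to 1.00006, and turned into log2(signal + 32). After 66 control probe sets and the lowest 40% by mean (signals below about 29) were removed, 7453 probe sets were fitted with limma 3.58.1 in R 4.3.3, with 1 mean per group, an intensity trend and two-sided p-values adjusted by Benjamini-Hochberg over all of them. The precision is limited by having 2 arrays per group. The fit was tested on simulated data.

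All 41 measured members were described. Signals on every array are given for the 3 brightest of each role group and, in each comparison, for the members with the highest and lowest differences. Other members' signals were picked after their values were seen. The members, lists and roles were chosen with earlier results of these data known. The replicate number goes with the extraction kit, so the arrays could be paired by it, but the main fit did not pair them. Deviations of same-numbered arrays correlated at -0.00727 (doxycycline and withdrawal), -0.0284 (doxycycline and estradiol) and 0.449 (withdrawal and estradiol). Alternatives were other pseudocounts, quantile normalization, other filters, no trend, a replicate block, the mean of a gene's probe sets, a fit of only the groups compared, and leaving out each array. Promoters are RefSeq's.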

Additional observations from a re-analysis of the deposited data

How the results depend on the processing

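With 2 arrays per group, single arrays set most values. With pseudocounts of 16 and 64, quantile normalization, a 20% filter or none, no trend, a replicate block or the mean of all probe sets, limma called 0 members in each comparison, and the named genes kept their direction and side of the threshold. The replicate block therefore changed no call. It gave 0 called members. For withdrawal against doxycycline it gave 17 members as higher at an unadjusted p under 0.05 by limma, against 2.6% of the tested probe sets. The main fit gave 14 there, against 2.07%, so the share of all probe sets rose too. With only the groups compared in the fit, 17 members were called for estradiol against doxycycline, against 1.72% of the tested probe sets. In the other comparisons 0 members were called.

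Each array was left out in turn (a lone array is assumed to vary like the other groups). Members were then called only for estradiol against doxycycline, and only without a withdrawal array. There the spread came from the doxycycline and estradiol arrays alone, so these calls repeat the fit of those groups. The median member differed by 0.24 to 1.37 (log2) for withdrawal against doxycycline, by 0.082 to 1.12 for estradiol against withdrawal and by 1.06 to 1.71 for estradiol against doxycycline. Members whose groups did not overlap, in either direction, numbered 18 to 38, 16 to 39 and 37 to 40 in the same order. The tested probe sets that were higher without overlap moved too, from 16.7% to 39.2%, 11.6% to 38.2% and 26.8% to 40.2%. Of the named genes, the following turned sign without the array given in parentheses, and the cause was not tested. For withdrawal against doxycycline the ranges were Kifc1 -1.23 to 0.024 (0.024 without doxycycline 1), Cks1b -0.055 to 1.31 (-0.055 without withdrawal 1), Ccnb2 -0.14 to 1.42 (-0.14 without withdrawal 1), Cdc20 -0.18 to 2.28 (-0.18 without withdrawal 1), Bub3 -0.21 to 0.52 (-0.21 without withdrawal 1), Pttg1 -0.36 to 1.41 (-0.36 without withdrawal 1) and Cenpc1 -0.063 to 0.024 (0.024 without withdrawal 2). For estradiol against withdrawal the ranges were Cks1b -0.19 to 1.16 (-0.19 without withdrawal 2), Ccnb2 -0.14 to 1.42 (-0.14 without withdrawal 2), Cdc20 -0.18 to 2.28 (-0.18 without withdrawal 2), Bub3 -0.17 to 0.56 (-0.17 without withdrawal 2), Pttg1 -0.19 to 1.58 (-0.19 without withdrawal 2), Cenpa -0.31 to 0.55 (-0.31 without withdrawal 2, -0.16 without estradiol 1), Prc1 -0.29 to 1.40 (-0.29 without withdrawal 2), Kif20a -0.16 to 1.17 (-0.16 without withdrawal 2) and Cenpc1 -0.25 to 0.080 (0.080 without estradiol 2). For estradiol against doxycycline the ranges were Kifc1 -0.49 to 0.76 (-0.49 without doxycycline 2, -0.11 without estradiol 1) and Cenpc1 -0.27 to 0.060 (0.060 without estradiol 2).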
